A study of Homo sapiens with 6 samples.

Results

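The mTORC1, AMPK and GCN2 nutrient-sensing genes are a module of 46 genes that encode the lysosomal amino-acid sensing machinery upstream of mTORC1, the AMP-activated kinase and its upstream kinase LKB1, and the kinases that phosphorylate eIF2. The members were found by gene name, and all 46 were among the 31368 genes of the expression table. They were measured in CAL27 cells, a human line from an oral (tongue) squamous cell carcinoma. The lactate group consisted of 3 libraries from CAL27 cells given 10 mM lactate for 24 h. The untreated group consisted of 3 libraries from CAL27 cells with no treatment. Polyadenylated RNA was sequenced in both groups, and the deposited unit was FPKM, fragments scaled to gene length and library size. The comparison asks how the transcripts of the nutrient-sensing machinery differed in cells given lactate.

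mTORC1 is a kinase complex that drives protein and lipid synthesis when amino acids, energy and growth factors are available. Amino acids are signalled through Rag GTPases, which the Ragulator scaffold holds on the lysosome and which bring mTORC1 to its activator RHEB. The GATOR1 complex turns the Rags off, GATOR2 opposes GATOR1, and the sestrin encoded by SESN2 binds GATOR2 when leucine is scarce. AMPK is activated when ATP is short and, through TSC2 and RPTOR, restrains mTORC1. GCN2 senses uncharged tRNA and, like the other eIF2 kinases, lowers general translation by phosphorylating eIF2. Most of this machinery is regulated at the level of protein binding and phosphorylation, which RNA levels do not measure.

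Whole reads were recovered from the steps of the FPKM values, with gene lengths partly fitted, and came to 25691989 to 39145586 reads a library. The labels do not say that the libraries came from separate cultures, so p-values measure the spread between these libraries, which may be technical. All 10 squamous epithelial markers examined, such as the keratin gene KRT5, were above the expression filter, with summed levels of 1074 to 1095 FPKM in lactate and 1061 to 1077 FPKM in untreated libraries. None of 5 fibroblast markers measured passed the filter, and their summed level was 1.59 to 1.79 FPKM in lactate and 1.04 to 1.19 FPKM in untreated libraries. The 4 immune markers measured also stayed below the filter, at sums of 0.381 to 0.632 FPKM in lactate and 0.720 to 0.914 FPKM in untreated libraries. Of 3 endothelial markers only CDH5 passed, and the sums were 1.03 to 1.13 FPKM in lactate and 1.13 to 1.41 FPKM in untreated libraries. Among them COL3A1, CD3E, LYZ, PECAM1 and VWF were under 0.1 FPKM in every library. In bulk RNA a lower level can reflect fewer cells of a type or less RNA per cell, and these cannot be told apart.

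The main features of the module in lactate were lower SESN2 and higher SESN3, higher PRKAA1 and eIF2 kinases, and lower MLST8 and AKT1S1. PRKAB1, RPS6KB2, LAMTOR1 and LAMTOR4 were also lower. The changes of LAMTOR1 and LAMTOR4 were smaller (-0.11 and -0.10) with the trend of each library on GC content and gene length removed. Of the 46 genes, 42 reached 1 FPKM in at least 3 libraries and were tested with limma on log2(FPKM + 1). A gene was called at an adjusted p under 0.05 (Benjamini-Hochberg adjustment across the 11792 genes that passed this filter). Among the 42, 10 were higher in lactate, 19 were lower and 13 were not called. Over all genes tested, 58.6% were called, 27.7% as higher and 30.9% as lower. The members' shares were 69.0% called, 23.8% higher and 45.2% lower. The groups did not overlap for 33 of the 42 members (78.6%), against 65.5% of all genes tested. The median log2 fold change of the members was -0.074, against -0.016 over all genes tested, and the median size of the change was 0.154 against 0.158. The size of change in the module was thus near that of the whole table. On the log2(FPKM + 1) scale, which understates changes of low genes, 9 called members changed by at least 0.25. The split between higher and lower depended on the scaling, since libraries rescaled to their read totals gave 15 higher and 12 lower members (35.7% and 28.6%), and limma-voom on recovered reads gave 16 and 16 (38.1% each). The whole table moved in the same way, to 35.6% higher and 21.4% lower genes with read totals, and to 38.1% and 23.5% with limma-voom.

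**Figure D1:**
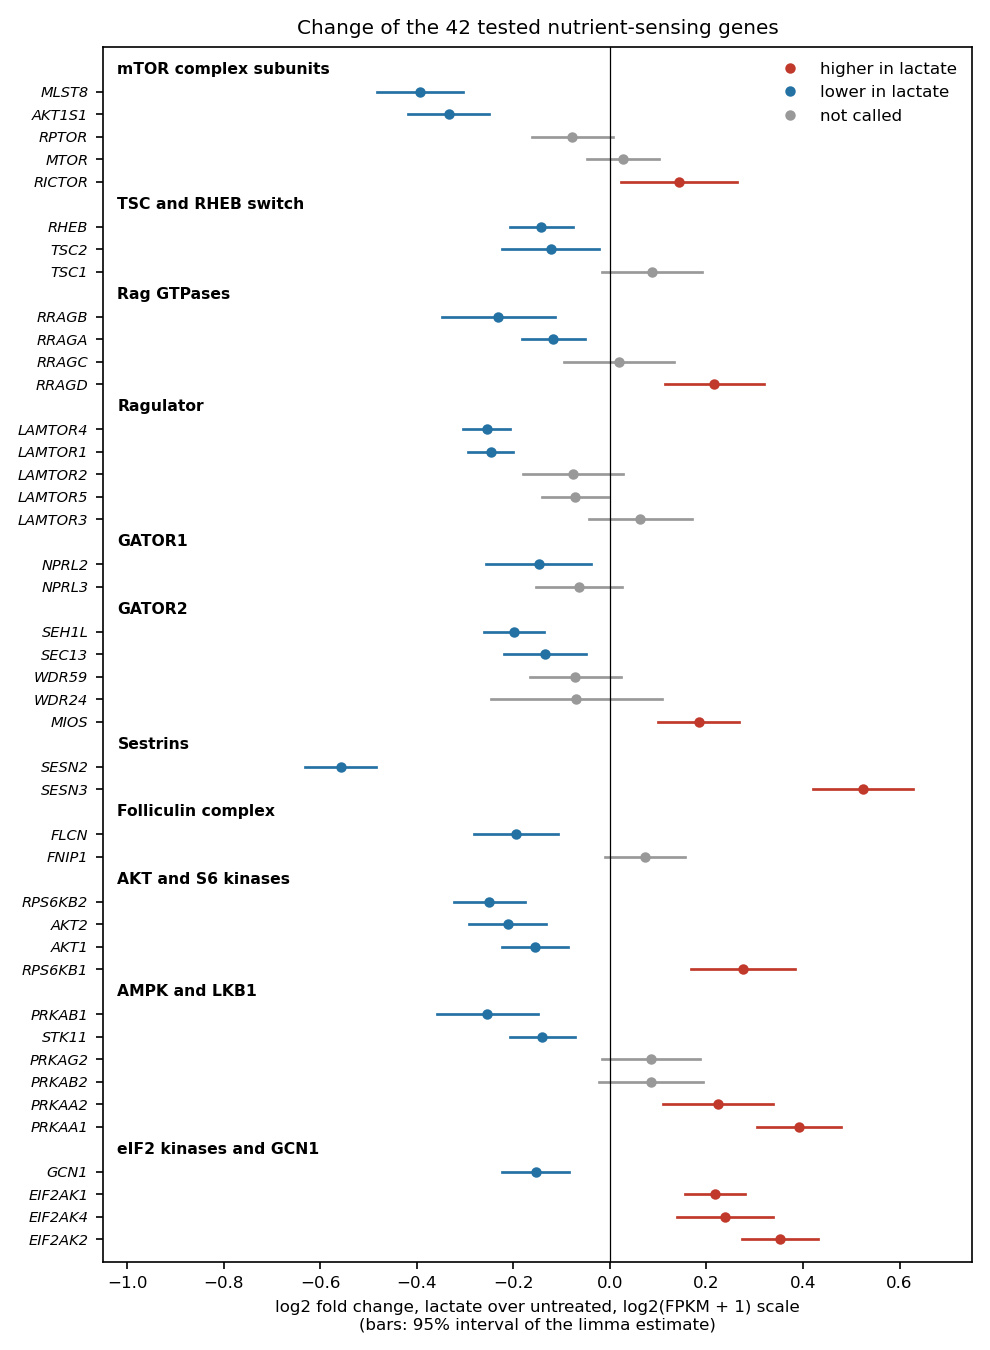
Log2 fold change (lactate over untreated, log2(FPKM + 1) scale, horizontal axis) of the 42 tested members, grouped by role, with bars for the 95% interval of the limma estimate. SESN2 at -0.56 and SESN3 at 0.52 lie at the opposite ends.

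Levels spanned a wide range within the module. LAMTOR1, the membrane anchor of Ragulator, had the highest mean level, with 57.1, 59.1 and 58.4 FPKM in lactate libraries, against 69.5, 69.4 and 69.0 FPKM in untreated libraries. The remaining 4 members were too low to test. The GATOR1 subunit DEPDC5 lay between 0.388 and 0.490 FPKM, and the folliculin partner FNIP2 between 0.304 and 0.487 FPKM. The AMPK gamma subunit PRKAG1 lay between 0.125 and 0.223 FPKM, from 18 to 31 reads, and its antisense gene DDN-AS1 covers 12.7% of its exon length. Whether such overlap lowered its read count was not tested, so its level is uncertain. DEPTOR, an mTOR inhibitor, had 2 to 18 reads and 0.0303 to 0.183 FPKM. FNIP2 alone of these had groups that did not overlap, with 0.429, 0.487 and 0.475 FPKM in lactate and 0.422, 0.318 and 0.304 FPKM in untreated libraries.

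**Figure D2:**
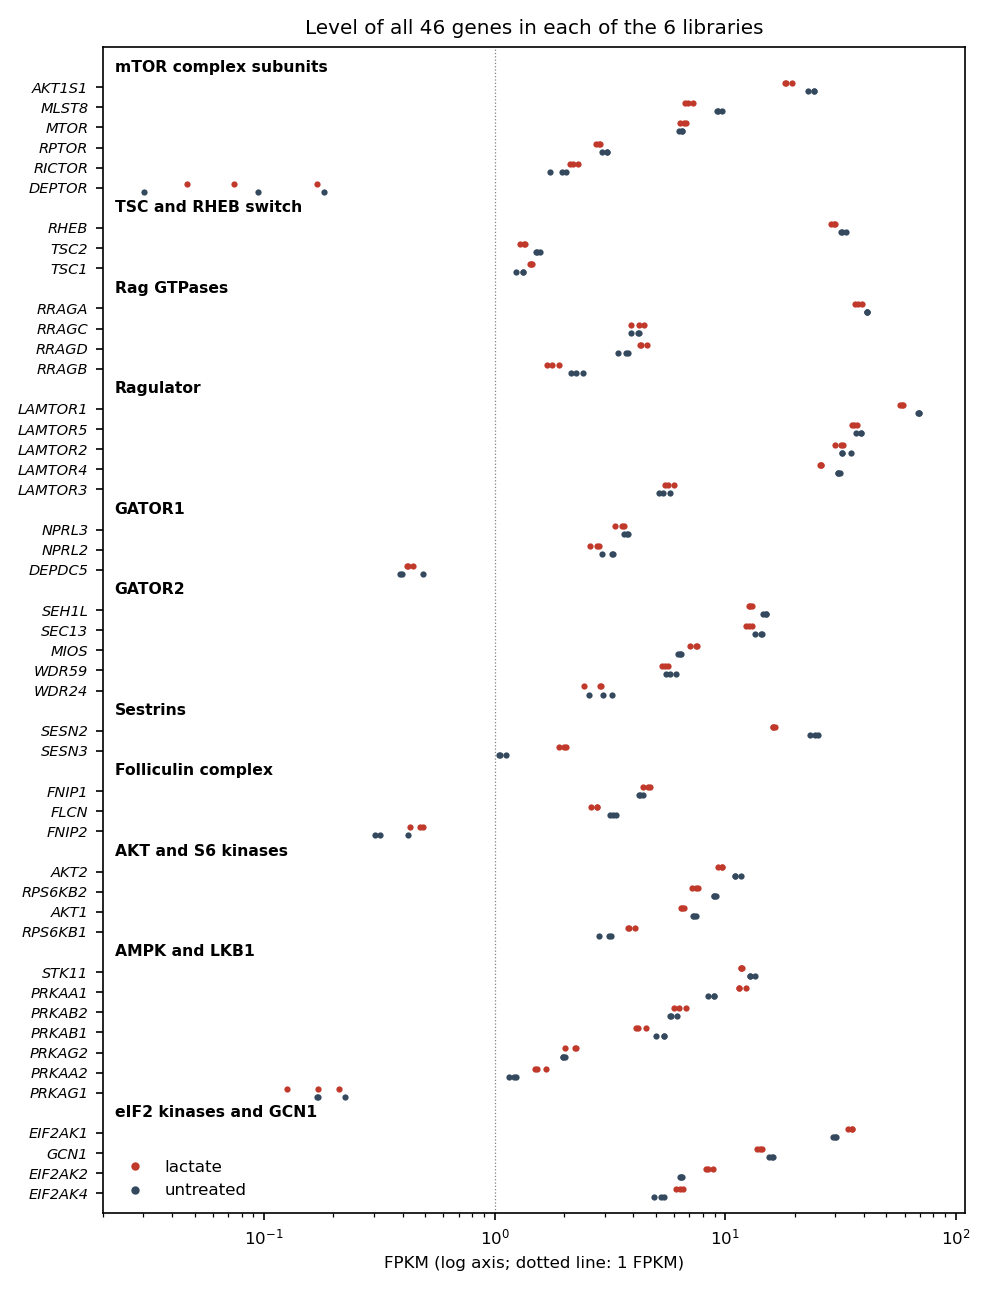
FPKM (horizontal log axis) of all 46 genes in the 3 lactate and 3 untreated libraries, 1 point a library, grouped by role and sorted by level. LAMTOR1 lies highest, and DEPTOR, PRKAG1, FNIP2 and DEPDC5 lie below the dotted line at 1 FPKM.

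The sestrins showed the largest changes in the module and moved in opposite directions. SESN2 (ENSG00000130766, GRCh38 chr1:28259527-28282491, plus strand) encodes a leucine-binding inhibitor of GATOR2 that is known as a target of ATF4 and p53. It had 16.4, 16.2 and 16.1 FPKM in the lactate libraries, against 23.4, 25.2 and 24.6 FPKM in the untreated libraries. Every lactate library was below every untreated one, and SESN2 fell to 0.666 times its untreated mean (log2 fold change -0.56, SE 0.0314, limma adjusted p = 1.82e-05). SESN3 (ENSG00000149212, chr11:95165513-95232541, minus strand) encodes a sestrin known as a FOXO target. It had 2.04, 2.01 and 1.90 FPKM in the lactate libraries, against 1.06, 1.05 and 1.12 FPKM in the untreated libraries. These groups did not overlap either, and SESN3 rose to 1.85 times its untreated mean (log2 fold change 0.52, SE 0.0444, limma adjusted p = 7.69e-05). SESN3 remained the scarcer of the pair in all 6 libraries.

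The promoters of both sestrin genes are shown because these genes changed most and in opposite directions. Each runs from 250 bases before to 50 bases after the RefSeq start (GRCh38.p14), 5′ to 3′ on the gene's strand, and no letters are capitalised because none of the motifs searched (described further below with TSC2 and RRAGB) occurred in them. The SESN2 window is chr1:28259268-28259567 (plus strand) with 67.0% GC, and the SESN3 window is chr11:95232426-95232725 (minus strand) with 45.0% GC, against a median of 58.3% over all 27305 RefSeq promoters.
SESN2: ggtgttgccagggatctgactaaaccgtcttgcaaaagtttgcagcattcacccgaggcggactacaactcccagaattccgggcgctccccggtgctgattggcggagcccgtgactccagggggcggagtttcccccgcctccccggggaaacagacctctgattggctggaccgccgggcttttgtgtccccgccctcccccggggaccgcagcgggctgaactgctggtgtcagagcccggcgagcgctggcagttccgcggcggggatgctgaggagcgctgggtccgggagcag
SESN3: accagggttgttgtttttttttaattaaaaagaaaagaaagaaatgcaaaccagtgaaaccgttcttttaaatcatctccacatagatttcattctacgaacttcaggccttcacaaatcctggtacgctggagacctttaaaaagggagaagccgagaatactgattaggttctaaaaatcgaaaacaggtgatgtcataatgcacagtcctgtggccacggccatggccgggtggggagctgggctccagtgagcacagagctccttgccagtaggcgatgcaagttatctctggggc

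Among the mTOR complex subunits, the small regulatory subunits changed and the kinase itself was not called. MTOR, the kinase, had 6.61, 6.37 and 6.74 FPKM in lactate libraries, against 6.49, 6.32 and 6.49 FPKM in untreated libraries. These values overlapped, and the log2 fold change of 0.03 had a 95% interval of -0.05 to 0.10 (limma adjusted p = 0.488). It was called higher, however, with libraries scaled to read totals (0.09, adjusted p = 0.0390) and with limma-voom on recovered reads (0.10, adjusted p = 0.00785). MLST8, a subunit shared by mTORC1 and mTORC2, had 6.88, 7.27 and 6.67 FPKM in lactate, against 9.19, 9.35 and 9.73 FPKM in untreated libraries. The groups did not overlap and MLST8 fell by 26.3% (log2 fold change -0.39, SE 0.0380, limma adjusted p = 0.000137). AKT1S1, which encodes the mTORC1 inhibitor PRAS40, had 18.2, 19.5 and 18.4 FPKM in lactate, against 22.9, 24.2 and 24.3 FPKM in untreated libraries. It also fell without overlap (-0.33, SE 0.0358, limma adjusted p = 0.000216).

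The defining scaffolds of the mTOR complexes differed less. RPTOR, the substrate-binding scaffold of mTORC1, had 2.75, 2.85 and 2.86 FPKM in lactate, against 2.93, 3.07 and 3.09 FPKM in untreated libraries. The groups did not overlap, but the log2 difference of -0.08 was not called (95% interval -0.16 to 0.01, limma adjusted p = 0.0974). It was called lower with quantile normalization (-0.12, adjusted p = 0.0295) and median centring (-0.10, adjusted p = 0.0436). RICTOR, the scaffold of mTORC2, had 2.30, 2.13 and 2.19 FPKM in lactate, against 2.04, 1.73 and 1.96 FPKM in untreated libraries. It was called higher just inside the threshold (0.14, SE 0.0514, limma adjusted p = 0.0455). That call ended when any library other than untreated replicate 1 was left out (adjusted p 0.0629 to 0.133), and the sign turned to -0.06 once the GC and length trend was removed.

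The TSC complex holds RHEB, the direct activator of mTORC1, in its inactive form. TSC2, the GTPase-activating subunit, had 1.29, 1.34 and 1.36 FPKM in lactate, against 1.51, 1.53 and 1.57 FPKM in untreated libraries. It was called lower without overlap (-0.12, SE 0.0427, limma adjusted p = 0.0399), and the call ended whichever library was left out (adjusted p 0.0721 to 0.111). TSC1, the partner that stabilises TSC2, had 1.43, 1.46 and 1.44 FPKM in lactate, against 1.33, 1.32 and 1.24 FPKM in untreated libraries. The groups were separate, yet the difference of 0.09 was not called (95% interval -0.02 to 0.19, limma adjusted p = 0.128). It was called higher with read totals (0.13, adjusted p = 0.0373), with limma-voom on recovered reads (0.23, adjusted p = 0.00045) and without the variance trend (adjusted p = 0.0315). RHEB had 28.7, 29.6 and 30.0 FPKM in lactate, against 33.6, 31.9 and 32.3 FPKM in untreated libraries, and was called lower (-0.14, SE 0.0282, limma adjusted p = 0.00378), though not with quantile normalization (adjusted p = 0.0952) or read totals (adjusted p = 0.0612). The RHEB value is uncertain because its processed pseudogene RHEBP2 held 1691 to 2478 reads in each library and RHEB itself 2833 to 4263. RHEBP2 was at 108.6, 98.7 and 102.7 FPKM in lactate, against 115.7, 112.0 and 111.3 FPKM in untreated libraries, and it was lower by nearly the same amount (-0.13, limma adjusted p = 0.0158).

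The Rag GTPases work as pairs of RagA or RagB with RagC or RagD, and each pair of genes contained at least 1 called member. RRAGB had 1.90, 1.77 and 1.69 FPKM in lactate, against 2.15, 2.42 and 2.25 FPKM in untreated libraries, and fell without overlap (-0.23, SE 0.0499, limma adjusted p = 0.00558). RRAGD, a known target of the TFEB and MiT family of lysosomal factors, had 4.30, 4.59 and 4.27 FPKM in lactate, against 3.77, 3.42 and 3.73 FPKM in untreated libraries. It rose without overlap (0.22, SE 0.0439, limma adjusted p = 0.00421), a call that ended with the GC and length trend removed (0.11, adjusted p = 0.0700). RRAGA, the most abundant Rag, averaged 37.9 ± 1.35 FPKM in lactate and 41.2 ± 0.108 FPKM in untreated libraries (SD, n = 3 each; -0.12, limma adjusted p = 0.00863). Its call ended with quantile normalization (-0.03, adjusted p = 0.411), read totals (-0.05, adjusted p = 0.211) and limma-voom (-0.05, adjusted p = 0.244), and its sign turned to 0.05 with the GC and length trend removed (adjusted p = 0.183). RRAGC overlapped between groups and was not called (0.02, 95% interval -0.10 to 0.13).

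Ragulator is the 5-subunit scaffold that tethers the Rags to the lysosome. Its anchor LAMTOR1, with the levels given above, fell to 0.841 times its untreated mean (-0.25, SE 0.0199, limma adjusted p = 6.28e-05). LAMTOR4 had 26.0, 25.7 and 26.1 FPKM in lactate, against 31.0, 30.9 and 31.5 FPKM in untreated libraries, and fell without overlap (-0.26, SE 0.0206, limma adjusted p = 6.27e-05). Exons of C7orf43 on the opposite strand cover 18.4% of LAMTOR4, and the strand setting of the counting is not given. LAMTOR2, LAMTOR3 and LAMTOR5 overlapped between groups, with log2 differences from -0.08 to 0.06, and none was called. LAMTOR5 was called lower without lactate replicate 2 or untreated replicate 2 (adjusted p = 0.0409 and 0.0284), with median centring (0.0224) and with a filter at 5 FPKM (0.0488). LAMTOR3 was called higher with limma-voom (0.14, adjusted p = 0.0325), and LAMTOR2 was called higher only with both the replicate block and the GC and length trend removed (0.098, adjusted p = 0.0462). The subunits therefore did not share a call.

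GATOR1 and GATOR2, the inhibitor of the Rags and its opponent, held called genes in both directions. Of GATOR1, NPRL2 was called lower (-0.15, limma adjusted p = 0.0281) and NPRL3 was not called (-0.06, adjusted p = 0.186) except with quantile normalization (-0.11, adjusted p = 0.0390). The NPRL2 call ended without lactate replicate 1 or 3 or untreated replicate 1 or 3 (adjusted p 0.0575 to 0.0896). MIOS, a GATOR2 subunit, had 7.45, 7.01 and 7.58 FPKM in lactate, against 6.46, 6.22 and 6.37 FPKM in untreated libraries. It rose without overlap (0.18, SE 0.0356, limma adjusted p = 0.00337), a call that ended with the GC and length trend removed (0.06, adjusted p = 0.151). SEH1L, which GATOR2 shares with the nuclear pore, had 12.6, 12.8 and 13.0 FPKM in lactate, against 15.0, 14.6 and 15.0 FPKM in untreated libraries. It fell without overlap (-0.20, SE 0.0263, limma adjusted p = 0.000552), and with the trend removed the difference was -0.38. SEC13, shared with the pore and the COPII coat, was called lower (-0.13, limma adjusted p = 0.0146), but not without untreated replicate 3 (adjusted p = 0.0503). WDR24 and WDR59 overlapped between groups and were not called (-0.07 each).

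Folliculin, the product of FLCN, activates RagC and RagD together with FNIP1 or FNIP2. FLCN had 2.77, 2.63 and 2.78 FPKM in lactate, against 3.36, 3.18 and 3.26 FPKM in untreated libraries. It fell without overlap to 0.835 times its untreated mean (-0.19, SE 0.0370, limma adjusted p = 0.00311). Exons of AC055811.2 on the same strand cover 11.9% of FLCN, and how reads in shared exons were counted is not given. FNIP1 overlapped between groups and was not called (0.07, 95% interval -0.01 to 0.16). Its direction depended on the processing, since it was called higher with read totals (0.13, adjusted p = 0.0137) and limma-voom (0.16, adjusted p = 0.00370), and lower with the GC and length trend removed (-0.11, adjusted p = 0.0420).

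AKT links growth factor signals to mTORC1, and the S6 kinases are mTORC1 substrates that promote translation. AKT1 had 6.48, 6.65 and 6.43 FPKM in lactate, against 7.51, 7.36 and 7.25 FPKM in untreated libraries, and AKT2 had 9.72, 9.74 and 9.28 FPKM in lactate, against 11.1, 11.7 and 11.0 FPKM in untreated libraries. Both fell without overlap (AKT1 -0.15, SE 0.0292, limma adjusted p = 0.00295; AKT2 -0.21, SE 0.0339, adjusted p = 0.00135). The S6 kinase genes moved apart. RPS6KB1, encoding S6K1, had 3.84, 3.81 and 4.08 FPKM in lactate, against 2.84, 3.20 and 3.13 FPKM in untreated libraries, and rose (0.28, SE 0.0456, limma adjusted p = 0.00158). RPS6KB2, encoding S6K2, had 7.17, 7.64 and 7.44 FPKM in lactate, against 8.91, 9.13 and 8.98 FPKM in untreated libraries, and fell (-0.25, SE 0.0314, limma adjusted p = 0.000439). Neither gene's groups overlapped, but the RPS6KB1 call ended with the GC and length trend removed (0.10, adjusted p = 0.137).

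AMPK is a trimer of a catalytic alpha, a scaffolding beta and a nucleotide-binding gamma subunit. PRKAA1 (ENSG00000132356, chr5:40759379-40798374, minus strand) encodes the catalytic alpha-1 subunit and had 12.4, 11.5 and 11.5 FPKM in lactate, against 8.46, 8.91 and 8.92 FPKM in untreated libraries. It rose without overlap by 34.8% (log2 fold change 0.39, SE 0.0372, limma adjusted p = 0.000126). PRKAA2, encoding alpha-2, had 1.67, 1.53 and 1.50 FPKM in lactate, against 1.21, 1.15 and 1.24 FPKM in untreated libraries. It also rose without overlap (0.22, SE 0.0486, limma adjusted p = 0.00578), a call that ended with the GC and length trend removed (0.04, adjusted p = 0.468). PRKAB1, encoding beta-1, went the other way with 4.12, 4.53 and 4.20 FPKM in lactate, against 5.43, 5.02 and 5.46 FPKM in untreated libraries (-0.25, SE 0.0449, limma adjusted p = 0.00219). PRKAB2 and PRKAG2, encoding beta-2 and gamma-2, were not called (0.09 and 0.08). Both were called higher with read totals (0.15, adjusted p = 0.0207, for PRKAB2 and 0.13, adjusted p = 0.0303, for PRKAG2) and with limma-voom (0.17, adjusted p = 0.00421, and 0.20, adjusted p = 0.00054). STK11, which encodes the AMPK-activating kinase LKB1, was called lower (-0.14, limma adjusted p = 0.00453), with 11.8, 11.7 and 11.8 FPKM in lactate, against 12.9, 13.5 and 12.8 FPKM in untreated libraries. The STK11 call ended with read totals (-0.07, adjusted p = 0.0741).

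The promoters of both alpha subunit genes are printed because the genes were called in the same direction, with windows and strands defined as for the sestrins. PRKAA1 is shown from chr5:40798128-40798427 (minus strand, 77.0% GC) and PRKAA2 from chr1:56645064-56645363 (plus strand, 82.7% GC). None of the motifs searched occurred in them, so no letters are capitalised.
PRKAA1: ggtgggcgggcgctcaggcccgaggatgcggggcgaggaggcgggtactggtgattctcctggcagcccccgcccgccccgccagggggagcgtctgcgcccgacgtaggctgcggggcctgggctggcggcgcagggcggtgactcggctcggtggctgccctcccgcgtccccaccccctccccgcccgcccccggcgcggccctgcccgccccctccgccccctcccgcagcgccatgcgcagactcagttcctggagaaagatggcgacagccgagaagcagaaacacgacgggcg
PRKAA2: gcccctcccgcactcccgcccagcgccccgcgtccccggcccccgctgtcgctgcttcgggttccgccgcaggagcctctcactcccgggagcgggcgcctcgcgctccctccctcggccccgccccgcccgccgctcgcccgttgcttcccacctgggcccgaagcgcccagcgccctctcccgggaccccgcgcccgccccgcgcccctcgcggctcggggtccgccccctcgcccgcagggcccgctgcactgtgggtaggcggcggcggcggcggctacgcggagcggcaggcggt

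The 3 eIF2 kinase genes of the module rose together. EIF2AK2, encoding the double-stranded RNA sensor PKR, had 8.85, 8.22 and 8.39 FPKM in lactate, against 6.36, 6.43 and 6.51 FPKM in untreated libraries (0.35, SE 0.0337, limma adjusted p = 0.000129). EIF2AK4, encoding the amino-acid sensor GCN2, had 6.09, 6.35 and 6.55 FPKM in lactate, against 4.92, 5.29 and 5.44 FPKM in untreated libraries (0.24, SE 0.0426, limma adjusted p = 0.00231). EIF2AK1, encoding the haem-regulated inhibitor HRI, had 35.6, 34.0 and 35.4 FPKM in lactate, against 30.4, 29.4 and 30.0 FPKM in untreated libraries (0.22, SE 0.0262, limma adjusted p = 0.000363). No groups overlapped for these kinases, and each kept its call under every alternative. GCN1, the ribosome-bound co-activator of GCN2, had 14.2, 14.5 and 13.8 FPKM in lactate, against 15.5, 16.2 and 16.0 FPKM in untreated libraries. It fell without overlap (-0.15, SE 0.0296, limma adjusted p = 0.00329), so the sensor and its co-activator moved in opposite directions. The GCN1 call ended with libraries scaled to read totals (-0.09, adjusted p = 0.0514).

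**Figure D3:**
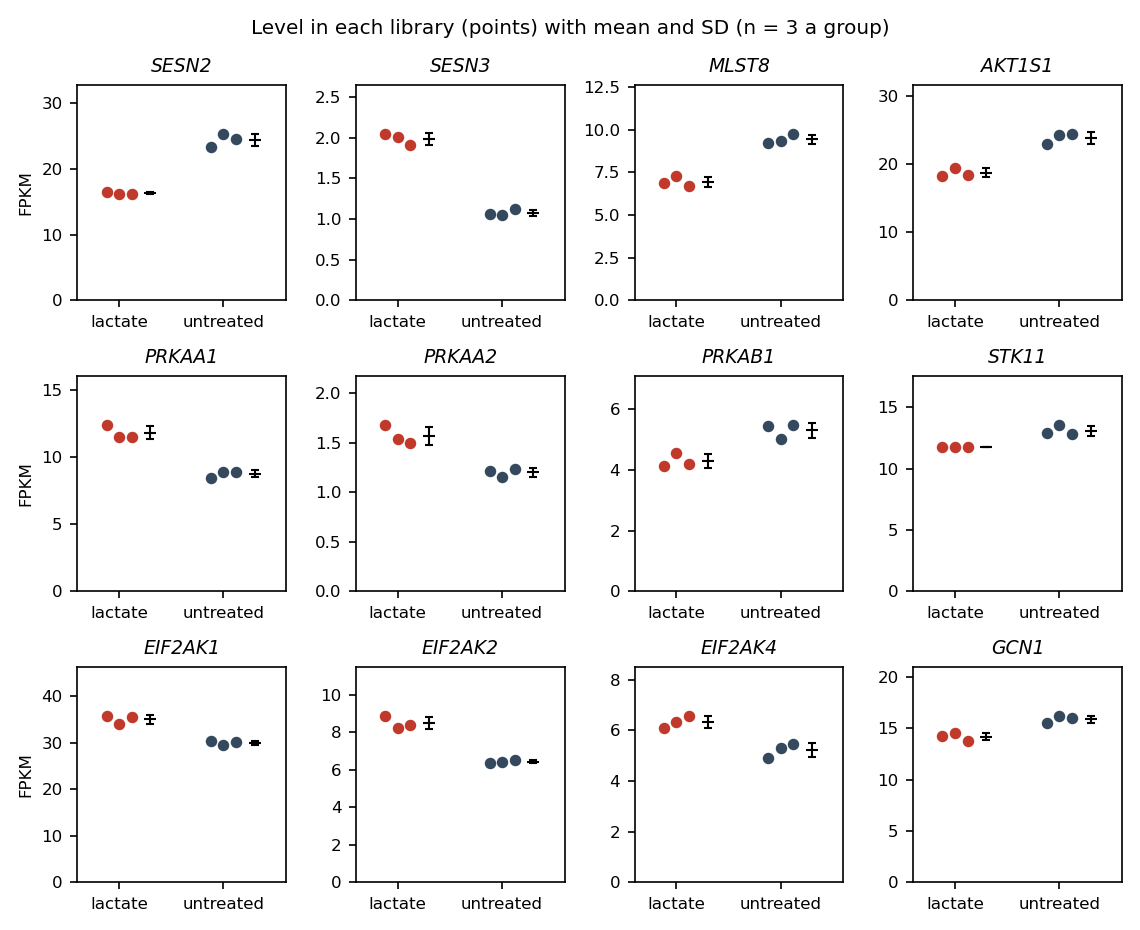
FPKM (vertical axis from 0) of 12 members in each lactate and untreated library, with the mean and SD beside the points (n = 3 a group). SESN2, MLST8, AKT1S1, PRKAB1, STK11 and GCN1 are lower in every lactate library than in any untreated one, and SESN3, PRKAA1, PRKAA2, EIF2AK1, EIF2AK2 and EIF2AK4 are higher.

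Paralogs that can take the same place in a complex were also compared as shares of their summed FPKM, which are per gene length. Over the 9 pairs, exact two-sided permutation tests of the mean log2 ratio can give no p below 0.1 with 3 libraries against 3. The smallest p adjusted over the pairs was 0.18. Unless another pseudocount is named, the log2 ratios used FPKM + 1 for each gene, so they differ from ratios of the plain FPKM behind the shares. SESN2 made up 88.9% to 89.5% of the sestrin pair in lactate, against 95.6% to 96.0% in untreated libraries (difference of log2 ratios -1.08, exact p = 0.1). RPS6KB1 made up 33.3% to 35.4% of the S6 kinase pair in lactate, against 24.2% to 25.9% in untreated libraries (0.53, exact p = 0.1). These shares did not overlap between groups. Shares are not corrected for the GC and length trend. With that trend removed, the log2 fold changes were -0.44 for SESN2, 0.33 for SESN3, 0.10 for RPS6KB1 and -0.17 for RPS6KB2. PRKAB1 made up 37.9% to 41.8% of the AMPK beta pair in lactate, against 46.6% to 48.3% in untreated libraries (-0.34, exact p = 0.1). RRAGC made up 47.7% to 50.8% of the RagC and RagD pair in lactate, against 50.9% to 55.2% in untreated libraries (-0.20, exact p = 0.1). The shares of the alpha subunits overlapped, with PRKAA1 at 88.1% to 88.5% in lactate and 87.5% to 88.6% in untreated libraries (0.17, exact p = 0.1, and 0.07, exact p = 0.3, with a pseudocount of 0.1). RRAGA made up 95.5% ± 0.270 of its pair in lactate and 94.8% ± 0.295 in untreated libraries, without overlap (SD, n = 3 each; 0.11, exact p = 0.2). The ratios for AKT1, FNIP1 and PRKAG1 gave exact p from 0.2 to 0.4, and their shares overlapped; that of PRKAG1 rests on the few reads given above.

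**Figure D4:**
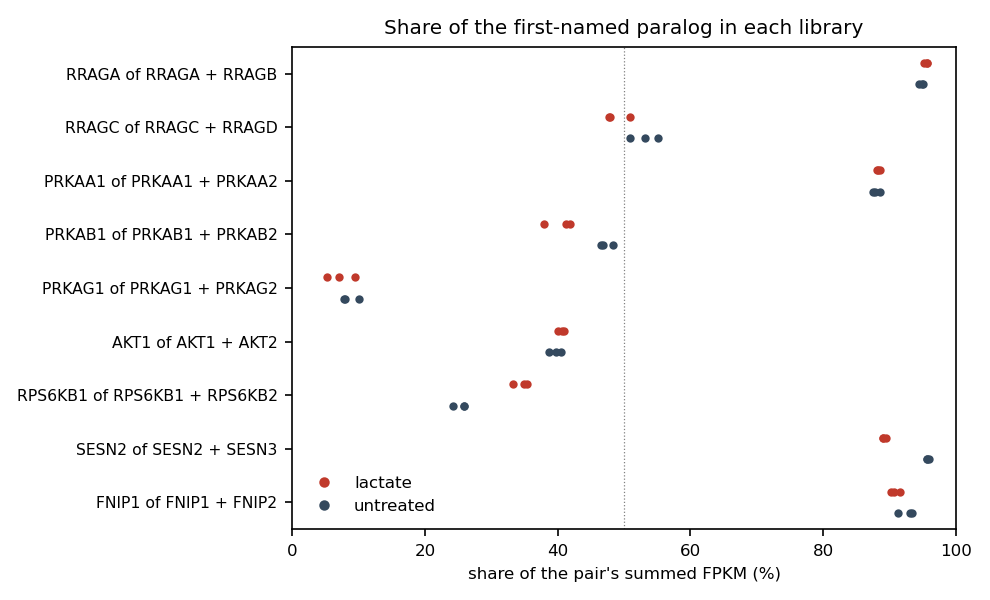
Share of the first-named gene in the summed FPKM of each of 9 paralog pairs (horizontal axis, percent), 1 point a library, lactate above untreated. The sestrin, S6 kinase, AMPK beta, RagA and RagB, and RagC and RagD pairs show lactate and untreated shares that do not overlap.

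A further 68 genes of the same pathways, outside the 46 members, were all in the table and 57 were tested. Of these, 15 were higher in lactate (26.3%) and 19 lower (33.3%), with a median log2 fold change of 0.005. These shares lay near the 27.7% and 30.9% of all genes tested. They count EIF2AK3 as higher and CAMKK1 as lower, which each passed the filter through 1 group alone, as given below. In the mTOR branch, 7 of 30 tested genes were higher and 11 lower. Among those that rose was the SAM sensor gene BMT2 (0.32). The autophagy gene ATG13 (-0.35), the KICSTOR gene KPTN (-0.34) and the stress-induced mTORC1 inhibitor DDIT4 (-0.27) fell most. With the GC and length trend removed they stood at -0.29, -0.19 and -0.12. Exons of other genes cover 41.2% of DDIT4. In the AMPK branch, 3 of 12 were higher and 3 lower. CAB39, which encodes the MO25 scaffold of LKB1, averaged 26.3 ± 0.275 FPKM in lactate and 18.0 ± 0.514 FPKM in untreated libraries (SD, n = 3 each; 0.52, limma adjusted p = 1.42e-05). The Rab GTPase-activating protein gene TBC1D1 (0.24) and the salt-inducible kinase gene SIK2 (0.17) also rose. CAMKK2 (-0.10), which encodes a calcium-dependent kinase upstream of AMPK, and the CREB coactivator gene CRTC2 (-0.12) fell. Both calls were lost with the GC and length trend removed (CAMKK2 -0.04, limma adjusted p = 0.321; CRTC2 -0.01, limma adjusted p = 0.806). CAMKK1, a gene of the same family as CAMKK2, was also called lower (-0.15), with 0.917, 0.912 and 0.893 FPKM in lactate, against 1.15, 1.08 and 1.13 FPKM in untreated libraries. CAMKK1 passed the filter only through the untreated libraries, where it is high, so its call is given as a description. That call was also lost with the trend removed (-0.09, limma adjusted p = 0.154).

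In the eIF2 branch, 5 of 15 genes were higher and 5 lower. The GCN2 inhibitor gene IMPACT (0.29) and the eIF2 beta subunit gene EIF2S2 (0.20) were among those that rose. EIF2AK3, which encodes the ER stress kinase PERK, was also called higher (0.26), with 1.20, 1.11 and 1.18 FPKM in lactate, against 0.878, 0.722 and 0.829 FPKM in untreated libraries. EIF2AK3 passed the filter only through the lactate libraries, where it is high, so its call is given as a description, and it was lost with the GC and length trend removed (0.14, adjusted p = 0.0594). PPP1R15A, encoding the stress-induced eIF2 phosphatase subunit GADD34, averaged 56.6 ± 1.90 FPKM in lactate and 75.4 ± 2.66 FPKM in untreated libraries and fell most (-0.41, limma adjusted p = 7.02e-05). The phosphatase catalytic gene PPP1CA (-0.26) and the eIF2B epsilon subunit gene EIF2B5 (-0.22) also fell.

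The direction of change in the module moved with base composition. Members called higher had a median GC content of 38.4%, members called lower 56.3% and members not called 48.5%. Over the 42 tested members, Spearman's rho of the log2 fold change was -0.69 with GC content and 0.34 with gene length, as a description across genes that share the same 6 libraries. With the trend of every library on GC content and length taken out, 20 of the 29 called members kept their call and direction. Those were 5 of the 10 higher genes (SESN3, PRKAA1, EIF2AK1, EIF2AK2 and EIF2AK4) and 15 of the 19 lower genes. Over all genes 23% were then higher and 25.8% lower. SESN2 then stood at -0.44, MLST8 at -0.32, SESN3 at 0.33 and PRKAA1 at 0.23. LAMTOR1 (-0.11), LAMTOR4 (-0.10) and EIF2AK2 (0.16) stayed called but with less than 0.5 times their change, and the lost calls were those of RPS6KB1, PRKAA2, RRAGD, MIOS, NPRL2, SEC13, RICTOR, RRAGA and TSC2. TSC2 kept a change of nearly the same size (-0.11, adjusted p = 0.0597). RICTOR and RRAGA changed sign, as given above. Whether the dependence on base composition arose in the cells or in the libraries was not tested.

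**Figure D5:**
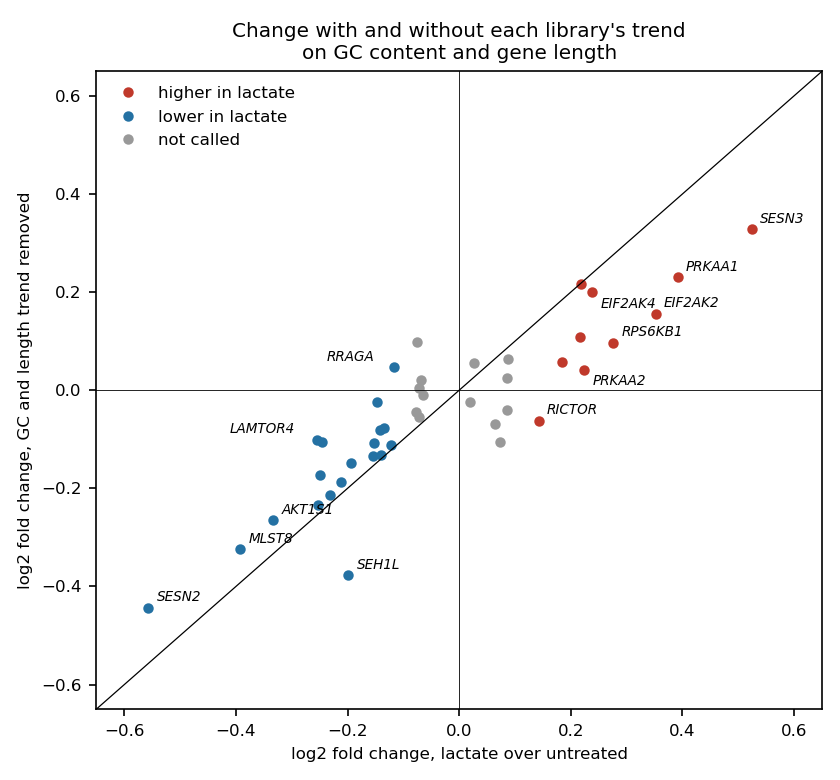
Log2 fold change of the 42 tested members (horizontal axis) against the same after removal of the trends on GC content and length (vertical axis), with the line of equal values. SESN2, MLST8, SESN3 and PRKAA1 keep their side, whereas RICTOR and RRAGA cross 0.

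Promoter sequences were found in RefSeq for 39 of the 46 members and searched on both strands for short motifs known in this biology. The E-box CACGTG, bound by bHLH-zip factors such as TFEB, TFE3 and MYC, occurred in 8 of 39 member promoters (20.5%) and in 7.43% of all 27305 RefSeq promoters of the same length. Those were EIF2AK2, called higher, LAMTOR1, LAMTOR4, RRAGB and TSC2, called lower, and FNIP1, NPRL3 and RRAGC, not called. The member promoters had a median GC content of 67.0%, against 58.3% over all promoters. Whether this difference in base composition bears on the E-box shares was not tested. The longer TCACGTGA, the core of the lysosomal CLEAR element, contains the E-box and occurred in 2 member promoters, TSC2 and RRAGB, and in 1.04% of all. TGATGCAA, a form of the ATF4 and C/EBP response element, occurred in the TSC2 promoter alone among the 39 and in 0.923% of all. A match is a description of letters and not evidence of binding. Both promoters with the longer match are shown as windows of 88 bases, TSC2 from chr16:2047830-2047917 and RRAGB from chrX:55717683-55717770, both on the plus strand of GRCh38.p14. Capitals mark the matches, which in TSC2 join TCACGTGA at -115 with TGATGCAA at -110 from the start (first base of each), and in RRAGB are TCACGTGA at -26 and a further CACGTG at 8.
TSC2: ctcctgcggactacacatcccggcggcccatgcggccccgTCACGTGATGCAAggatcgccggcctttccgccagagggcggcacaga
RRAGB: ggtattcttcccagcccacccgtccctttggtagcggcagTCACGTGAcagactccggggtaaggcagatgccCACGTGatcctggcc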

How the data were processed

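Poly-A RNA of CAL27 cells was sequenced in 3 lactate and 3 untreated libraries, grouped by the treatment in the labels. The authors deposited FPKM per gene. The submitters' processing notes name fastp, HISAT2 2.0.5, StringTie 1.3.3b, featureCounts 1.5.0-p3 and hg38; their roles, the annotation release and the strand setting were not given in the sources used here. FPKM values could be written as whole multiples of 1 read's value within 0.003 reads for all 31368 genes. The GENCODE 29 exon length gave this for 16697 genes. For the others a length that gave whole reads was searched for, so whole reads are no check there. The recovered reads came to 97.1% to 98.2% of the implied denominators in lactate and 102% to 103% in untreated libraries.

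Genes reaching 1 FPKM in 3 or more libraries were tested on log2(FPKM + 1) with limma 3.58.1 in R 4.3.3, using its trend and robust options. This scale understates changes of low genes. Group was the only term, and p-values were adjusted by Benjamini-Hochberg over 11792 genes at 0.05. The procedure was tested on simulated data. These had no GC or length trend and no scaling difference between groups, so that test cannot speak to such effects. Coordinates, GC content and overlaps came from GENCODE 29 and promoters from RefSeq. Alternatives covered scaling, filters, pseudocount, variance model, test, threshold, replicate block, GC and length trend, and each library left out. Other steps used Python 3.11.15 (matplotlib 3.10.9, scipy 1.17.1, pandas 2.3.3, numpy 2.4.6).

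The members, pathway lists and tests were chosen with earlier results of these data known. Values per library are given for up to 12 called members in each direction with the largest change and for MTOR, RPTOR, RICTOR, TSC1, TSC2, RHEB, PRKAA1, PRKAA2, EIF2AK4, GCN1 and RPS6KB1. STK11 and FNIP2 were added after their values were seen. Up to 3 called genes per direction are named in each pathway list, and some that this rule would name are not reported here. The fibroblast marker DCN and the immune marker PTPRC were looked up but not found among the genes with values.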

Additional observations from a re-analysis of the deposited data

How the results depend on the processing

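Of the 29 called members, 17 kept their call under every one of the 18 alternatives that gave a value. Those were 5 higher (SESN3, PRKAA1, EIF2AK1, EIF2AK2, EIF2AK4) and 12 lower (SESN2, MLST8, AKT1S1, LAMTOR1, LAMTOR4, RRAGB, SEH1L, FLCN, AKT1, AKT2, RPS6KB2, PRKAB1). Against 10 higher members, a filter at 5 FPKM, which tests fewer genes, gave 5 of 26 tested (19.2%, against 27.7% of all genes), limma-voom on recovered reads 16 (38.1%, against 38.1%) and the GC and length trend removed 5 (11.9%, against 23%). Against 19 lower members, read totals gave 12 (28.6%, against 21.4%). Among other pathway genes, the filter at 5 FPKM left 9 higher against 15 (27.3% of 33 tested, against 27.7% of all genes). The trend removed also left 9 higher (15.8%, against 23%), and read totals 12 lower against 19 (21.1%, against 21.4%). Leaving out 1 library gave 9 to 10 higher (21.4% to 23.8%) and 16 to 19 lower members (38.1% to 45.2%). Among other genes it gave 12 to 15 higher (21.1% to 26.3%) and 15 to 18 lower (26.3% to 31.6%). Over all genes 23.8% to 25.7% were then higher and 27.3% to 29.2% lower. Whether replicate numbers pair the libraries could not be settled with 3 libraries a group. Deviations of same-numbered libraries correlated at 0.0526, 0.0668 and -0.00377. Lactate replicates 1 and 2 each correlated best with the untreated replicate of the same number. Lactate replicate 3 correlated best with untreated replicate 2 (0.00731). The replicate block gave 10 higher and 18 lower members (23.8% and 42.9%) and 17 higher and 18 lower other genes (29.8% and 31.6%). Over all genes the block gave 27.6% higher and 32.1% lower. With the block used and the trend removed, 6 members and 9 other genes were higher (14.3% and 15.8%, against 22.6% of all genes). The sign turned with the trend removed, with or without the block, for RICTOR (-0.062), RRAGA (0.047), RRAGC (-0.024), LAMTOR2 (0.098, adjusted p = 0.0462 with the block), LAMTOR3 (-0.069), LAMTOR5 (0.0042), WDR24 (0.021), FNIP1 (-0.11, adjusted p = 0.0420 without the block and 0.0586 with it) and PRKAB2 (-0.041). It also turned with quantile normalization for RRAGC (-0.016), LAMTOR2 (0.0096) and LAMTOR5 (0.019), with voom for LAMTOR2 (0.0021), and with median centring for RRAGC (-0.0028). With 1 library left out, RRAGC ranged from -0.018 to 0.059. The cause was not tested. Members below the filter had at most 301 reads in a library, which limits what can be said of them. The filter was on FPKM and not on reads, and RRAGB was tested with 158 to 203 reads.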
